A study of Mus musculus with 6 samples.

Results

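The interferon-inducible p200 genes of the mouse were compared between wild type (WT) and progranulin knockout (PGRN KO) macrophages that had met the yeast Candida albicans. The genes considered were Ifi203, Ifi204, Ifi205, Ifi207, Ifi209, Ifi211, Mndal and Aim2, which were taken by gene symbol and make up 8 of the 54532 genes in the table. All 8 lie on chromosome 1, between positions 173350879 and 174031810 of the GRCm38 build, a stretch of 680.9 kb. According to the labels, macrophages recruited from the peritoneal cavity of C57BL/6J mice were plated at 2000000 cells per well, and both genotypes were then exposed for 6 hours to C. albicans, with 1 fungal cell added for each macrophage. There were 3 WT libraries (replicates 1, 2 and 3) and 3 PGRN KO libraries (replicates 4, 5 and 6), and all of them came from challenged cells. The knockout is present in every cell of the mouse and, per the study's methods, PGRN KO mice came from the Jackson Laboratory and WT mice from Chongqing Medical University, so genotype and supplier cannot be told apart. The labels, which were followed here, differ from the study's text, which names bone marrow-derived macrophages as the sequenced cells and gives another ratio of fungus to macrophages. The age of the mice that gave the macrophages, and whether the 3 libraries of a group came from separate mice, were not found in the labels or the methods, so p-values measure the spread between these libraries, which may be technical.

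Proteins of the p200 family carry a HIN domain, which binds DNA, and many of them also carry a pyrin domain, which binds other pyrin domains. Aim2 detects double-stranded DNA in the cytosol and, through the adaptor ASC, builds an inflammasome that activates caspase-1. Ifi204 is often likened to human IFI16 and has been linked to the cGAS-STING pathway of DNA sensing and to control of cell growth, whereas several of the other members are less well studied. Transcription of the family is raised by type I interferon through the factor ISGF3, which binds the interferon-stimulated response element (ISRE) in promoters.

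Before the start of transcription, most of the members held the core letters of an ISRE. Promoters of GRCm38.p6 from RefSeq, each with 250 bases before and 50 bases after an annotated start, were found for 7 of the 8 members and not for Ifi204. The core was searched on both strands as GAAANNGAAA, and a match lay before the start in 5 of these 7 members, namely Ifi203, Ifi205, Ifi207, Ifi211 and Mndal. Of all 32851 promoters, 3.44% held the core anywhere and 2.98% held it before the start. The core of the gamma-activated site, TTCNNNGAA, matched in 0 of the 7 members and in 8.30% of all promoters. The 150 bases before the start are shown for these 7 genes, 5′ to 3′ on the strand of the gene, since they let the members with and without the core be compared, and capitals mark the core.
Ifi203: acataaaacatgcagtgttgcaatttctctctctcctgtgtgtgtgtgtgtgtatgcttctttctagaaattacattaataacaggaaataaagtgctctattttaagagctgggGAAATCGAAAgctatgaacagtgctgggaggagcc
Mndal: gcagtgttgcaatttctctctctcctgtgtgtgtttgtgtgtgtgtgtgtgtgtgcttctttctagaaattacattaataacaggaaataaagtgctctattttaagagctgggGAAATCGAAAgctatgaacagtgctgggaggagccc
Ifi207: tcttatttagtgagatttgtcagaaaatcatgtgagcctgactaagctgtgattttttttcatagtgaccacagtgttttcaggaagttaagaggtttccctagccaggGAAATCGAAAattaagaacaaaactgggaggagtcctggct
Ifi211: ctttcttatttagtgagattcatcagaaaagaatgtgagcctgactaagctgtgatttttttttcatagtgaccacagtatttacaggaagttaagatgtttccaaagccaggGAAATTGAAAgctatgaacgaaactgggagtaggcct
Ifi205: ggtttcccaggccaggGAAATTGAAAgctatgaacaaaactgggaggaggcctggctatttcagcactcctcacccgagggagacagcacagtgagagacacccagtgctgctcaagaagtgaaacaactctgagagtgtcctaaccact
Ifi209: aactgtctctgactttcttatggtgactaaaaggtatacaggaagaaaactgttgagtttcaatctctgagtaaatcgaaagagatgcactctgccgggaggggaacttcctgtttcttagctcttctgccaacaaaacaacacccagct
Aim2: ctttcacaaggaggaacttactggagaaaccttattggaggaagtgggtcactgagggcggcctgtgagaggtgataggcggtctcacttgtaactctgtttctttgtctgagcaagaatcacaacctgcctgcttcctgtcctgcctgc
These windows lie at Ifi203 chr1:173942493-173942642 (minus strand), Mndal chr1:173880188-173880337 (minus strand), Ifi207 chr1:173741810-173741959 (minus strand), Ifi211 chr1:173913047-173913196 (minus strand), Ifi205 chr1:174031756-174031905 (minus strand), Ifi209 chr1:173630709-173630858 (plus strand) and Aim2 chr1:173420454-173420603 (plus strand). In Mndal, Ifi203, Ifi211 and Ifi207 the core began 36, 35, 37 and 41 bases before the RefSeq start, and in Ifi205 134 bases before it. Ifi203 and Mndal each had a second RefSeq promoter, which is not shown. That of Ifi203, which also begins at a GENCODE transcript start, held no core and came no nearer than 2 mismatches, and that of Mndal held a core on the other strand 54 bases before its start. The windows of Ifi203 and Mndal were 85.7% identical in a global alignment, and those of Ifi207 and Ifi211 84.4% identical, whereas each other pair reached at most 58.0%. Ifi209 and Aim2 came within 1 mismatch of the 8 set letters, as did 35.4% of all promoters. The RefSeq start was that of a GENCODE transcript for Ifi203, Mndal, Ifi211 and Ifi205, and lay 58 bases before the nearest one for Ifi209 and 62 bases before it for Ifi207, and 6 bases after it for Aim2. A match of letters is a description of the sequence, and no binding was measured.

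The libraries held 15996786 to 17551619 counted fragments each, and each member was covered by at least 1070 fragments in every library. Grn, the gene of progranulin, was measured at 328 ± 7.18 FPKM in WT against 0.0111 ± 0.00961 FPKM in PGRN KO (SD, n = 3 each). PGRN KO replicate 6 stood apart from the other libraries: its log2 level minus the mean of replicates 4 and 5 had a median of 0.38 over the shortest tested gene models (38 to 1776 bases) and of -0.32 over the longest (6950 to 41324 bases), and limma gave it a sample weight of 0.0899 against 1.07 to 3.79 for the other libraries. Macrophage markers were high in all libraries (Lyz2 5657 to 8135 FPKM, Cd68 1103 to 1344 FPKM), and of 10 such markers tested 1 was higher (Mertk) and 2 were lower (Csf1r among them) in PGRN KO. Over all tested genes, 10.4% were called higher and 13.8% lower. Of the markers of large peritoneal macrophages, Gata6 was at 3.95 FPKM in WT against 4.50 FPKM in PGRN KO on average, and Timd4 was at 0 to 0.204 FPKM. Icam2 was the 1 gene of this list past the threshold (3.10 FPKM in WT, 5.10 FPKM in PGRN KO, limma adjusted p = 0.00914), and the 5 listed genes, of which Cd9 held most of the total, summed to 321 to 338 FPKM in WT and 281 to 302 FPKM in PGRN KO. B cell markers moved with genotype, with all 6 listed genes (Cd79a, Cd79b, Ms4a1, Ighm and Pax5 among them) separate and higher in PGRN KO and a summed level of 4.80 to 6.08 FPKM in WT and 19.0 to 24.1 FPKM in PGRN KO. Of these 6 genes, 3 averaged below 1 FPKM and were not tested. Among all tested genes, 21.2% were separate and higher in PGRN KO. Mast cell markers summed to 2.29 to 3.19 FPKM in WT and 9.72 to 14.0 FPKM in PGRN KO, and 4 of the 6 averaged below 1 FPKM. Of these, Kit alone went the other way, with overlapping groups (0.345 FPKM in WT, 0.210 FPKM in PGRN KO on average). Dendritic cell markers summed to 27.4 to 34.7 FPKM in WT and 15.8 to 19.3 FPKM in PGRN KO. Nearly all of this was Ccr7 (25.5 to 32.4 FPKM in WT, 14.5 to 18.2 FPKM in PGRN KO). Zbtb46 went the other way with overlapping groups (0.550 FPKM in WT, 0.698 FPKM in PGRN KO on average), and Siglech was near 0. Of 8 neutrophil markers, Ly6g, Elane and Cxcr2 were listed at 0 in all 6 libraries and S100a8 was at 48.3 to 52.8 FPKM in WT and 21.2 to 25.6 FPKM in PGRN KO. S100a8 was the only 1 of them abundant enough to be tested. S100a9, Camp, Mpo and Ltf were at 0 to 0.443 FPKM with overlapping groups. The means of S100a9 and Camp were higher in PGRN KO, and those of Mpo and Ltf lower. Markers of T and NK cells summed to at most 4.87 FPKM in any library. The part of these cells in the results that follow was not tested, and in bulk samples fewer cells of a type and less RNA per cell cannot be told apart.

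Of the 8 members, 3 (Ifi209, Mndal and Ifi204) were higher in PGRN KO than in WT, and 0 members were lower. Ifi209 differed most, with a mean level 2.42 times that of WT. Ifi203, Ifi205, Ifi207, Ifi211 and Aim2 did not pass the test, and Aim2 and Ifi207 had almost the same mean in both genotypes. The test was limma on log2(FPKM + 1), with Benjamini-Hochberg adjustment over the 8882 genes whose mean reached 1 FPKM and a threshold of 0.05 on the adjusted p, and all 8 members were tested. Of all tested genes, 10.4% were called higher and 13.8% lower in PGRN KO (921 and 1230 genes), a split that turned to 922 higher and 608 lower on a TPM scale, on which 4 members were higher. In 4 of the 8 members (Ifi204, Ifi209, Ifi211 and Mndal) every PGRN KO library lay above every WT library, as it did for 21.2% of all tested genes. The median log2 fold change was 0.47 over the members and -0.03 over all tested genes. With PGRN KO replicate 6 left out, 4 members were higher and 0 lower, Ifi203 being the added member, while the share of all tested genes called higher rose to 15.9%.

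**Figure D1:**
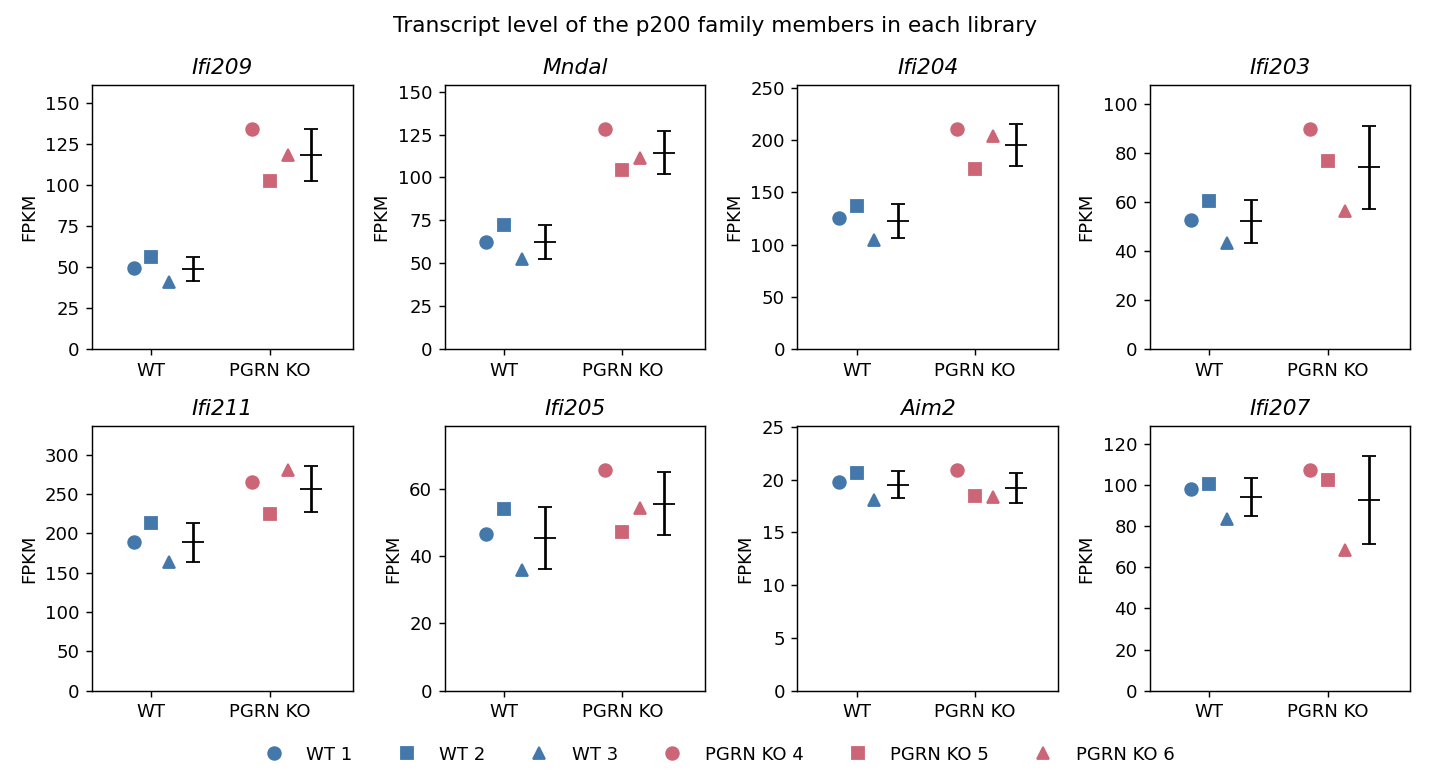
FPKM (vertical axes, from 0) of the 8 genes in each WT library (blue) and PGRN KO library (red), with a marker shape for each library and the mean and SD (n = 3) in black beside each group. The groups are separate in Ifi209, Mndal, Ifi204 and Ifi211 and overlap in Ifi203, Ifi205, Aim2 and Ifi207.

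Ifi209 (ENSMUSG00000043263, chromosome 1, 173630917 to 173647928, plus strand) was the member with the largest difference. The WT libraries, in the order of replicates 1, 2 and 3, held 49.5, 55.9 and 41.0 FPKM, and the PGRN KO libraries, in the order of replicates 4, 5 and 6, held 133.9, 102.6 and 118.1 FPKM. The lowest PGRN KO library was thus far above the highest WT library. The means were 48.8 ± 7.49 and 118 ± 15.6 FPKM (SD, n = 3 each), and the log2 fold change was 1.26 ± 0.15 (SE, 95% interval 0.91 to 1.61, limma adjusted p = 0.00286). Ifi209 stayed past the threshold in all 18 alternative settings, with a log2 fold change of 1.14 to 1.36 and an adjusted p of 0.000203 to 0.0223. Of the 31-base words in its annotated transcripts, 46.8% also occur in transcripts of Ifi214, a neighbour whose own level was below 1 FPKM.

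Mndal (ENSMUSG00000090272, chromosome 1, 173849126 to 173942491, minus strand), named after the human myeloid cell nuclear differentiation antigen, stood at 62.5, 72.5 and 52.8 FPKM in the WT libraries. The PGRN KO libraries held 128.2, 104.1 and 111.3 FPKM. All PGRN KO libraries were above all WT libraries, with replicate 4 the highest. Its mean of 62.6 ± 9.85 FPKM in WT became 114.5 ± 12.3 FPKM in PGRN KO (SD, n = 3 each), which is a log2 fold change of 0.87 ± 0.14 (SE, 95% interval 0.53 to 1.20, limma adjusted p = 0.00759), and it too passed the threshold in all 18 settings. The gene model of Mndal spans that of Ifi211 and most of that of Ifi203 on the same strand, and it shares 37 exonic bases with Ifi203 and 118 with the pseudogene Gm38050.

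Ifi204 (ENSMUSG00000073489, chromosome 1, 173747293 to 173766943, minus strand) was the second most abundant member. Its level was 125.6, 136.5 and 104.8 FPKM in WT and 210.5, 172.6 and 203.5 FPKM in PGRN KO, in the same order of replicates, so that the groups were separate. Ifi204 averaged 122 ± 16.1 FPKM in WT against 195.5 ± 20.2 FPKM in PGRN KO (SD, n = 3 each), with a log2 fold change of 0.68 ± 0.13 (SE, 95% interval 0.36 to 0.99, limma adjusted p = 0.0140). The call was lost without WT replicate 1 (adjusted p = 0.0627) and without WT replicate 3 (adjusted p = 0.0539), while the log2 fold change over all settings was 0.57 to 0.78.

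Ifi211 (ENSMUSG00000026536, chromosome 1, 173896345 to 173913046, minus strand) had the highest level of the family in all 6 libraries. It was at 188.9, 213.4 and 163.9 FPKM in WT and at 265.1, 224.5 and 280.4 FPKM in PGRN KO. The groups were separate, but WT replicate 2 and PGRN KO replicate 5 were close to each other. Means of 189 ± 24.8 and 257 ± 28.9 FPKM (SD, n = 3 each) gave a log2 fold change of 0.44 ± 0.14 (SE, 95% interval 0.12 to 0.77), and the limma adjusted p of 0.0555 missed the threshold. In 7 of 18 alternative settings it passed, with adjusted p-values from 0.0101 to 0.172 over all of them. Ifi211 is also the member least distinct in sequence, since 78.9% of its 31-base words occur in transcripts of other genes, chiefly Ifi205, Ifi204 and Mndal. How fragments that match several genes were counted is stated in neither source, so the split of fragments among these close copies is uncertain.

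Ifi203 (ENSMUSG00000039997, chromosome 1, 173920407 to 173942672, minus strand) had WT levels of 52.6, 60.4 and 43.2 FPKM, against 89.7, 76.6 and 56.1 FPKM in the PGRN KO libraries. Replicates 4 and 5 were above all WT libraries, and replicate 6 lay within the WT range. The log2 fold change was 0.49 ± 0.20 (SE, 95% interval 0.03 to 0.95, limma adjusted p = 0.113). Without replicate 6 it was 0.67 with an adjusted p of 0.0141. Ifi203 has the longest gene model of the 8 members, at 6706 bases, and was 0.55 lower on the log2 scale in replicate 6 than in the mean of replicates 4 and 5. Tested genes with models of 4658 to 6949 bases had a median of only -0.10 on this measure. The cause of the lower value in replicate 6 was not tested.

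Ifi205 (ENSMUSG00000054203, chromosome 1, 174011998 to 174031810, minus strand) was at 46.7, 54.1 and 35.8 FPKM in WT and at 65.6, 47.1 and 54.3 FPKM in PGRN KO. Replicate 4 was above all WT libraries, replicate 6 was level with the highest of them, and replicate 5 lay within their range. The log2 fold change of 0.29 ± 0.18 (SE, 95% interval -0.14 to 0.72, limma adjusted p = 0.275) did not pass the threshold in any of the 18 alternative settings.

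Aim2 (ENSMUSG00000037860, chromosome 1, 173350879 to 173466040, plus strand), the inflammasome sensor, was the least abundant member in every library. Its level was 19.8, 20.7 and 18.1 FPKM in WT and 20.9, 18.5 and 18.4 FPKM in PGRN KO. The ranges of the genotypes almost coincided. The means of 19.5 ± 1.30 and 19.3 ± 1.42 FPKM (SD, n = 3 each) gave a log2 fold change of -0.02 ± 0.10 (SE, limma adjusted p = 0.896), and its 95% interval of -0.24 to 0.21 ended below the intervals of Ifi209, Mndal and Ifi204.

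Ifi207 (ENSMUSG00000073490, chromosome 1, 173723427 to 173741747, minus strand), the immediate neighbour of Ifi204, had WT levels of 98.3, 100.4 and 83.6 FPKM. The PGRN KO libraries held 107.2, 102.6 and 68.3 FPKM. Replicates 4 and 5 lay above the WT libraries and replicate 6 below them. The log2 fold change was -0.04 ± 0.18 (SE, 95% interval -0.48 to 0.39, limma adjusted p = 0.878), and without replicate 6 it was 0.16 with an adjusted p of 0.196. Its model of 3422 bases is of middling length, and in replicate 6 it was 0.61 below the mean of replicates 4 and 5 on the log2 scale.

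**Figure D2:**
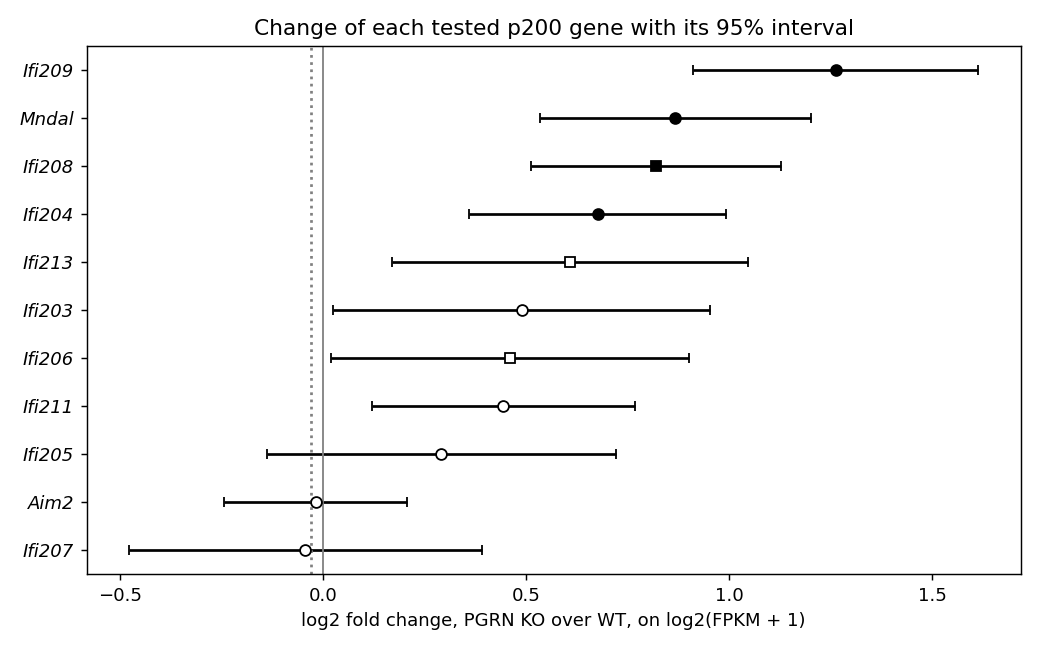
Log2 fold change of PGRN KO over WT on log2(FPKM + 1) (horizontal axis) for the 8 members (circles) and 3 other p200 genes tested (squares), with 95% intervals from limma, filled symbols past the adjusted threshold of 0.05, and a dotted line at the median of all tested genes (-0.03). The interval of Ifi209 (0.91 to 1.61) lies far to the right and those of Aim2 and Ifi207 span 0.

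A permutation of the 6 libraries cannot go below p = 0.1 for 3 against 3, two-sided. That value was reached by Ifi204, Ifi209, Ifi211 and Mndal in the exact test of each member.

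The libraries of a genotype ranked alike across most members. On the scale of the deposited FPKM, replicate 2 was the highest and replicate 3 the lowest WT library for all 8 members. The library sizes behind these FPKM differed from the counted fragments. They were 14790124 against 15996786 in WT replicate 2 and 18044262 against 17551619 in WT replicate 3. Such scaling raises replicate 2 and lowers replicate 3, and how far the WT ranking depends on it was not tested. WT replicate 3 had the most counted fragments of the WT libraries. Nevertheless, Ifi203, Ifi204, Ifi205, Ifi209, Ifi211 and Mndal had their fewest WT fragments in it. Ifi207 and Aim2 had their fewest in WT replicate 2. The ranking was not repeated per counted fragment. In PGRN KO, replicate 4 was the highest for 7 members and replicate 6 for Ifi211, and the lowest was replicate 5 for 5 members and replicate 6 for 3. The summed level of the 8 genes was 543 to 714 FPKM in WT against 849 to 1021 FPKM in PGRN KO. The share of a gene in this sum does not depend on how libraries are scaled to each other.

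The make-up of the family differed between the genotypes. Ifi209 made up 7.54% to 7.83% of the summed FPKM in WT and 12.1% to 13.1% in PGRN KO. The share of Mndal was 9.70% to 10.2% in WT and 12.2% to 12.6% in PGRN KO, and that of Ifi204 was 19.1% to 19.5% and 20.3% to 22.4%. These 3 shares were separate between the genotypes. Ifi207 took 14.1% to 15.4% of the sum in WT and 7.50% to 12.1% in PGRN KO, Ifi205 6.58% to 7.57% and 5.55% to 6.42%, and Aim2 2.89% to 3.33% and 2.02% to 2.18%, all separate and lower in PGRN KO. The shares of Ifi203 and Ifi211 overlapped. Shares within a sum show unequal change among the members, not the direction of any one of them, and the exact two-sided test can give no p below 0.1 for any of them.

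**Figure D3:**
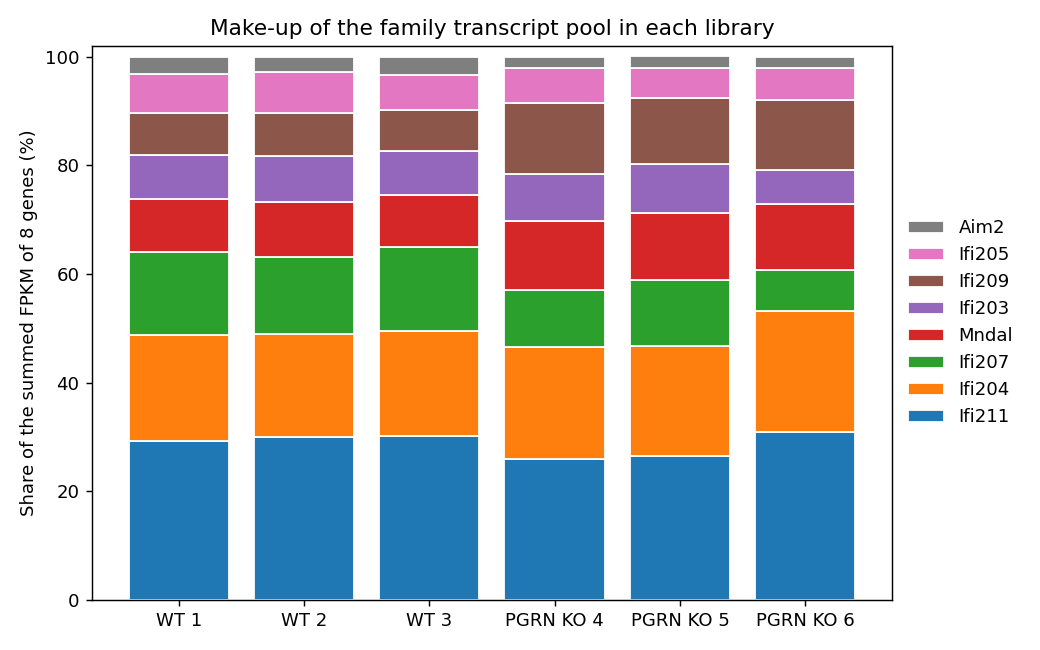
Share of each gene (colours) in the summed FPKM of the 8 genes (vertical axis, percent) in each of the 6 libraries. The Ifi209 band widens from at most 7.83% in WT to at least 12.1% in PGRN KO, and the Ifi207 band narrows from at least 14.1% to at most 12.1%.

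The order of levels, in FPKM and thus per length of the gene model, was Ifi211, Ifi204, Ifi207, Mndal, Ifi203, Ifi209, Ifi205 and Aim2 in WT. Among neighbours in this order, the ranges of Mndal and Ifi203, of Ifi203 and Ifi209, and of Ifi209 and Ifi205 overlapped, although within each single library the order held. In PGRN KO the order was Ifi211, Ifi204, Ifi209, Mndal, Ifi207, Ifi203, Ifi205 and Aim2. There Ifi209 had moved from rank 6 to rank 3, and Ifi209 and Mndal could not be ranked beyond their spread, Ifi209 being the higher in 2 of 3 libraries. The ranges of Mndal and Ifi207, of Ifi207 and Ifi203, and of Ifi203 and Ifi205 overlapped as well.

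The other p200 genes of the cluster were also examined, of which 5 were found by name. Ifi208 was at 2.90, 3.11 and 2.49 FPKM in WT and 6.63, 4.76 and 5.99 FPKM in PGRN KO, and rose by 0.82 ± 0.13 on the log2 scale (SE, limma adjusted p = 0.00712). Ifi213 (3.98 ± 0.952 against 6.57 ± 1.42 FPKM, SD, n = 3 each) and Ifi206 (38.3 ± 8.36 against 52.7 ± 9.37 FPKM) did not pass the threshold (limma adjusted p = 0.0541 and 0.117). Their groups were separate nonetheless, with WT replicate 2 and PGRN KO replicate 5 of Ifi206 at 47.0 and 47.2 FPKM. Ifi213 passed it without PGRN KO replicate 6 (adjusted p = 0.0385). Ifi214 and Ifi202b had a mean below 1 FPKM and were not in that test. For Ifi214, 20 to 27 fragments per library were counted in WT and 82 to 100 in PGRN KO, and in a fit without the filter on low values, in which 2.63% of 22912 genes were called higher, its log2 fold change was 0.45 ± 0.07 (SE, limma adjusted p = 0.0254). Of the 31-base words of Ifi214, 20.4% also occur in transcripts of the far more abundant Ifi209, and 30.7% of those of Ifi208 occur in Ifi213. Fragments of these genes may thus be counted for one another, which was not tested. Ifi202b, whose level is known to differ widely between inbred strains, had 18 to 31 fragments in WT and 26 to 39 in PGRN KO. The ISRE core lay before the RefSeq start of Ifi206, Ifi208, Ifi213 and Ifi214 and was not found in the window of Ifi202b.

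Along the chromosome, 22 annotated genes overlapped the stretch from Aim2 to Ifi205, of which 14 were tested, 4 were higher in PGRN KO (Ifi204, Ifi208, Ifi209 and Mndal) and 0 were lower. Among all tested genes, 10.4% were higher and 13.8% lower. In order of start, called and uncalled tested genes alternated only from Ifi209 to Mndal, where Ifi207 lies between Ifi208 and Ifi204. No tested gene was called before this part (Aim2, Ifi206 and Ifi213). The same held for those that start after Mndal does (Ifi211, Ifi203, Gm18445 and Ifi205), of which Ifi211 lies within the span of Mndal. The pseudogene Ifi203-ps was at 4.20 FPKM in WT against 8.03 FPKM in PGRN KO on average (limma adjusted p = 0.0888), and Gm18445 at 5.04 and 5.88 FPKM (adjusted p = 0.534). The microRNA gene Gm44339, which lies within Ifi209, was covered by 3 to 20 fragments per library and did not pass the test. At the ends of the cluster, Mptx2, Ackr1 and Olfr431-ps1 were listed at 0 in all libraries, and Olfr432, Olfr433 and Cadm3, whose gene model overlaps that of Aim2, stayed below 1 FPKM.

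**Figure D4:**
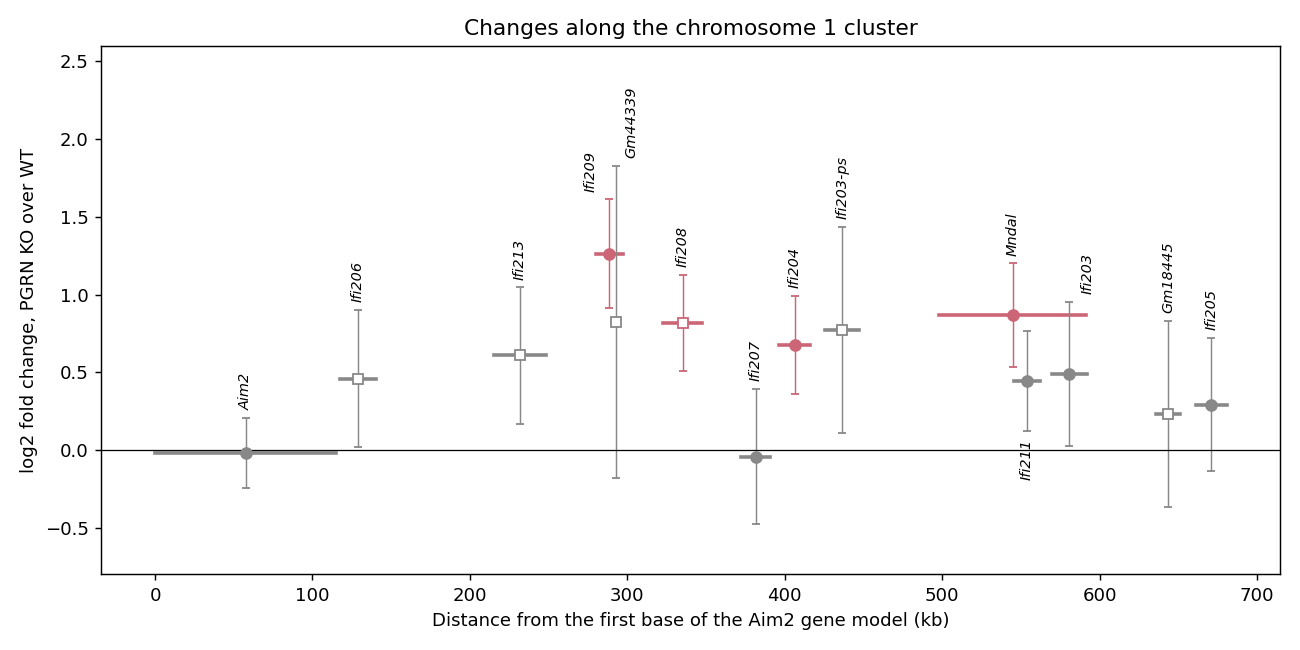
Log2 fold change of PGRN KO over WT (vertical axis, with 95% intervals from limma) of the 14 tested genes of the cluster against their distance from the first base of the Aim2 gene model in kb (horizontal axis), with horizontal bars for the span of each gene model, circles for the 8 members, squares for other genes, and red for genes past the adjusted threshold. The 4 red genes are interspersed with genes that did not pass.

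Genes that act beside or downstream of Aim2 in inflammasomes changed in both directions. Of 14 tested inflammasome genes, 6 were higher and 2 lower in PGRN KO, with a median log2 fold change of 0.20. Over all tested genes, 10.4% were higher and 13.8% lower. The effector protease Casp1 was at 24.2, 27.8 and 23.5 FPKM in WT and 56.1, 43.9 and 65.5 FPKM in PGRN KO, with a log2 fold change of 1.09 ± 0.16 (SE, limma adjusted p = 0.00520). Its adaptor Pycard, which encodes ASC, rose from 1.35 ± 0.179 to 3.14 ± 0.840 FPKM (SD, n = 3 each), and Il18, a cytokine that caspase-1 processes, rose from 4.99 ± 1.16 to 11.8 ± 2.29 FPKM. Casp8, Naip5 and Naip6 also rose (log2 fold change 0.52, 0.75 and 0.63). The sensors Nlrp3 and Nlrc4 fell, Nlrp3 from 289 ± 48.1 to 179 ± 25.5 FPKM (log2 fold change -0.68 ± 0.16, SE, limma adjusted p = 0.0253) and Nlrc4 from 9.05 ± 0.793 to 4.63 ± 0.522 FPKM. Il1b (5219 ± 1095 and 4694 ± 462 FPKM), Ninj1, Casp4 and Gsdmd, the pore-forming target of caspases, did not pass the test. Without WT replicate 1, without WT replicate 2 and without WT replicate 3, the number of higher inflammasome genes was 2, 2 and 3, and the number of lower ones was 1 in the first and the second of these fits. Calls fell over all tested genes too, with 3.66%, 4.66% and 4.46% called higher in the same fits. The number of all tested genes called lower was 371, 435 and 479 there, against 1230 in the main fit.

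Of 15 tested genes of cytosolic DNA sensing and its restraint, 2 were higher and 1 lower, with a median log2 fold change of 0.22. With 10.4% of all tested genes higher and 13.8% lower, these counts do not set the list apart. Samhd1, which breaks down deoxynucleotides, was at 16.0, 16.4 and 14.2 FPKM in WT and 41.4, 31.2 and 41.3 FPKM in PGRN KO, with a log2 fold change of 1.23 ± 0.13 (SE, limma adjusted p = 0.00216). Mre11a, a nuclease of DNA repair, rose by 0.37 and the helicase gene Dhx9 fell by 0.79 on the log2 scale. Zbp1, Tbk1, Dnase2a and Ddx41 did not pass, and Trex1 was listed at 0. Without PGRN KO replicate 6 the counts were 4 higher and 3 lower, and leaving out any other single library gave 1 higher. Of all 8885 genes tested without replicate 6, 15.9% were called higher and 2230 genes lower. With any other single library left out, 3.66% to 8.2% of all tested genes were called higher.

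In the list of interferon signalling, 5 of 20 tested genes were higher and 2 lower, with a median log2 fold change of 0.22. The shares over all tested genes were 10.4% higher and 13.8% lower. The ligand gene Ifnb1 was at 5.66, 6.94 and 3.62 FPKM in WT and 7.39, 5.42 and 8.95 FPKM in PGRN KO, with overlapping groups (limma adjusted p = 0.274). Stat2, a subunit of ISGF3, rose from 44.0 ± 2.57 to 64.8 ± 7.61 FPKM (SD, n = 3 each), with a log2 fold change of 0.54 ± 0.11 (SE, limma adjusted p = 0.0157). Irf9, also a subunit, was at 20.6 ± 1.02 and 20.0 ± 0.678 FPKM and did not pass. The kinase Tyk2, the factor Irf5 and Usp18, an inhibitor of the type I interferon receptor, rose by 0.62, 0.79 and 0.88 on the log2 scale. Jak1 fell by 0.62 and Irf8 by 0.57. Socs3, Irf7 (116 ± 10.7 and 177 ± 48.5 FPKM), Irf1 and Jak2 did not pass. The number of lower genes in this list was 0 without any one of the WT libraries, and the number of higher genes was 2 without WT replicate 1 and 3 without WT replicate 3. Without WT replicates 1, 2 and 3 in turn, 3.66%, 4.66% and 4.46% of all tested genes were called higher. The number of all tested genes called lower was 371, 435 and 479 in these fits.

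For scale, other interferon-induced families had higher median fold changes than the p200 genes in the same fit, although the difference between the families was not tested. All 5 tested genes of the IFIT family, which bind foreign RNA, were higher in PGRN KO, with a median log2 fold change of 1.46, against 10.4% of all tested genes. Ifit1 rose from 210 ± 37.4 to 409 ± 31.7 FPKM, Ifit2 from 127 ± 23.6 to 351 ± 67.9 FPKM and Ifit3 from 76.1 ± 11.9 to 241 ± 69.2 FPKM (SD, n = 3 each). Of 7 tested guanylate-binding proteins, GTPases that attack the vacuoles of pathogens, 6 were higher, with a median of 1.04. Gbp2 was at 96.3 ± 19.7 and 251 ± 47.0 FPKM, Gbp3 at 49.1 ± 8.91 and 138 ± 25.7 FPKM and Gbp5 at 29.4 ± 8.91 and 82.8 ± 14.4 FPKM. The fold change of Ifi209 was thus within the span of these families, and those of Aim2 and Ifi207 were below every tested gene of both.

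Among the tested genes searched, those whose pattern over the 6 libraries was nearest the mean pattern of the 8 members were Oma1, Olfr56, Rap2c, Dck and Tent4a. Left out of this search were all p200 genes and every gene whose name begins with Gm or ends in Rik, so nearer genes may exist among those. Likeness was the root mean square difference of log2(FPKM + 1) after each gene was centred on its own mean, and it was 0.0441, 0.0554, 0.0632, 0.0633 and 0.0649. Relative to the mean of all libraries, the mean pattern itself was -0.21, -0.07 and -0.46 in the WT libraries and 0.42, 0.16 and 0.16 in the PGRN KO libraries. The gene model of Olfr56 spans those of the interferon-induced GTPases Ifi47 and Tgtp2.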

How the data were processed

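RNA was sequenced in 3 WT and 3 PGRN KO libraries. The authors aligned reads and counted fragments per gene and deposited FPKM (fragments per kilobase of gene model, scaled to library size). The submitters' processing notes name HISAT2 2.0.5, featureCounts 1.5.0-p3, DESeq2 1.20.0 and GRCm38, whereas the methods text names HTSeq for counting. Since the deposited values are FPKM, limma 3.58.1 in R 4.3.3 was run on log2(FPKM + 1) (empirical Bayes with a mean-variance trend, two-sided, no covariates) over genes whose mean reached 1 FPKM, with Benjamini-Hochberg adjustment. This scale understates fold changes of low genes. FPKM times gene length gave whole multiples of 1 step per library for 100.0% of values, within 0.001 of a step, and thus the counted fragments, which were also tested with voom. Reads carry no molecular identifiers, so fragments are not independent molecules. Of the gene identifiers, 99.93% were found in GENCODE M21 for GRCm38, and 98.33% of these had the same start and end. Promoters came from RefSeq (GRCm38.p6).

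The members and gene lists were chosen with earlier results of these data known. Named were the members, the other p200 genes, Grn, every gene past the threshold and up to 4 abundant others in each of 3 pathway lists, up to 3 abundant genes in each of 2 interferon-induced families, genes between or next to the members, and the 5 genes nearest the members in pattern. Irf9, as a subunit of ISGF3, and the marker genes were named outside this rule after their values were seen. A few genes are counted in the totals but not reported here by name. Alternatives were other pseudocounts (0.1 and 0.01), filters (none, or a mean FPKM of at least 5), scalings (TPM scale, quantile, sum of fragments), variance models, voom, a loess correction for gene length (span 0.5), and leaving out each library.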

Additional observations from a re-analysis of the deposited data

How the results depend on the processing

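Over the 18 alternatives, the number of members higher in PGRN KO was 2 to 5 and the number lower was 0. It was 5 with sample quality weights and 5 with the correction for gene length without PGRN KO replicate 6, and 2 to 4 when 1 library was left out. The share of all tested genes called higher moved as well. It was 10.4% in the main fit, 19.8% with sample quality weights and 18.3% with that length correction. When 1 library was left out it was 3.66% to 15.9%. The number of all tested genes past the threshold, 2151, was 1366 with no filter, 4225 with sample quality weights, 3636 with the length correction without replicate 6, and 698 to 3645 when 1 library was left out (lowest without WT replicate 1, highest without PGRN KO replicate 6). Lower calls outnumbered higher ones by 1230 to 921, but numbered 608 against 922 on the TPM scale and 695 against 1179 with the sum of fragments as library size. Ifi207 changed sign to 0.011 on the TPM scale, 0.002 with quantile normalization, 0.055 with the sum of fragments, 0.117 with sample quality weights, 0.19 with the length correction without replicate 6, 0.005 when WT replicate 2 was left out and 0.16 when PGRN KO replicate 6 was (range over single libraries left out -0.162 to 0.16). Aim2 changed sign to 0.033, 0.032, 0.076, 0.013 and 0.041 under the first 5 of these, and to 0.021, 0.008 and 0.011 when WT replicate 2, PGRN KO replicate 5 or PGRN KO replicate 6 was left out (range -0.077 to 0.021). None of these values of Ifi207 or Aim2 passed the threshold, and the cause was not tested. Ifi209 and Mndal passed in 18 of 18 settings, Ifi204 in 16, Ifi211 in 7, Ifi203 in 4 and Ifi205 in 0. The counts of higher genes ranged from 2 to 6 in the inflammasome list, from 1 to 7 in DNA sensing and from 2 to 9 in interferon signalling. Leaving out 1 library leaves 2 in its group. No paired analysis was possible because no replicate number occurs in both genotypes.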
